A study of Homo sapiens with 4 samples.

Results

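ALK, its relative LTK and 4 reported ligands of the pair, ALKAL1, ALKAL2, PTN and MDK, were followed in RNA sequencing counts of SK-N-BE(2) cells in which IRF2BP2 had been lowered. The genes were chosen by symbol, and all 6 matched 1 row each among the 64252 gene rows of the count table. SK-N-BE(2) is an established human neuroblastoma line with amplified MYCN. One group of 2 libraries came from cells that received a short hairpin RNA (shRNA) against IRF2BP2, and the other group of 2 libraries from cells that received a scramble shRNA. All 4 libraries are from the same line. The labels do not say whether the 2 replicates of a group were separate cultures, and every p-value below reflects library-to-library spread that may be technical. Nor do they say how many hairpins were used, and an effect of the hairpin apart from its target was not tested.

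ALK is a receptor tyrosine kinase of the developing nervous system and is a frequent target of activating mutations in neuroblastoma. Its extracellular part binds ligand, the receptors pair, and the kinase domains then phosphorylate each other and recruit adaptor proteins of the SHC, IRS and FRS families, which pass the signal to the RAS and ERK kinases and to PI3 kinase. LTK is the closest relative of ALK, and the small secreted proteins ALKAL1 and ALKAL2 activate both. Pleiotrophin (PTN) and midkine (MDK) are heparin-binding growth factors that were reported as ALK ligands earlier and that also act through receptor phosphatases, syndecans and integrins.

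Each library had between 30847699 and 34684651 counts. IRF2BP2, the targeted gene, had 89.6 and 87.5 CPM (counts scaled to the library total and TMM factor) in the IRF2BP2 shRNA libraries, against 243 and 238 CPM in the scramble libraries, and was 2.72-fold lower (edgeR quasi-likelihood test, adjusted p = 5.87e-10). Its paralogs IRF2BPL and IRF2BP1 differed by 0.81 and 0.14 on the log2 scale, with edgeR adjusted p-values of 4.65e-07 and 0.223. Mitochondrially encoded genes held 6.42% of the counts in each IRF2BP2 shRNA library, against 7.27% and 7.10% in the scramble libraries. All 12 neuroblastoma markers were detected. Their summed levels were 9610 and 9750 CPM in the IRF2BP2 shRNA libraries and 9820 and 10200 CPM in the scramble libraries. Most of each sum was MYCN, with 7070 and 7170 CPM in the IRF2BP2 shRNA libraries and 5360 and 5510 CPM in the scramble libraries. MYCN was the 1 marker that rose, and 9 fell, among them DBH (36.8-fold), CHGA (5.67-fold) and STMN2 (3.97-fold). Over all genes tested, 42.0% had an adjusted p under 0.05 in either direction. Markers of Schwann cells, endothelium, leukocytes and epithelium summed to between 2.04 and 8.75 CPM in every library, with CDH19, FOXD3, PECAM1, CD3E, LYZ, AIF1, KRT5, KRT14 and ESRP1 at 0. The 8 fibroblast markers summed to 441 and 438 CPM in the IRF2BP2 shRNA libraries, against 536 and 519 CPM in the scramble libraries, with FAP at 0, and 2 of them rose and 4 fell. The part of these markers and of the mitochondrial share in the results below was not tested.

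The tested receptor and ligand genes did not all move in 1 direction when IRF2BP2 was lowered. ALK fell 4.38-fold and MDK fell 1.22-fold, while PTN rose 1.95-fold. LTK was counted at a low level and its difference missed the threshold. ALKAL2 was counted in the scramble libraries alone, and ALKAL1 in no library.

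The sequences upstream of the starts of ALK and PTN are shown because these genes had the largest fall and the largest rise among the 4 tested. They come from RefSeq on GRCh38.p14, whose promoter table held 4 of the 6 genes. Each runs 250 bases up to the base before the RefSeq start, 5′ to 3′ on the strand of the gene. ALK is listed with 2 starts. The first lies at the outer end of the gene, and the second lies in intron 19 of a GENCODE transcript of ALK with 29 exons. Counts per gene cannot separate transcripts from these 2 starts. Capitals mark matches to GGGCGG (the GC box) and CANNTG (the E-box) on either strand.
ALK, first start, chr2:29921587-29921836, minus strand: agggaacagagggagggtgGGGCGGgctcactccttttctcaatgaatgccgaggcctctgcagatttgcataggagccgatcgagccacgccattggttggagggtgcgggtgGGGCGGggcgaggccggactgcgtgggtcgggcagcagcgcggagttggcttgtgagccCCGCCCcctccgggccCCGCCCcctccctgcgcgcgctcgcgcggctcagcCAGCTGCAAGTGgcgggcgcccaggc
ALK, second start, chr2:29223824-29224073, minus strand: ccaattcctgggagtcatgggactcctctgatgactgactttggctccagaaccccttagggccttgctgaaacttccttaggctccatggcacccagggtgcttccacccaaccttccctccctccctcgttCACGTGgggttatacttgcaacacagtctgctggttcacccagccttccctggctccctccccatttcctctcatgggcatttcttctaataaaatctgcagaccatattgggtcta
PTN, chr7:137343734-137343983, minus strand: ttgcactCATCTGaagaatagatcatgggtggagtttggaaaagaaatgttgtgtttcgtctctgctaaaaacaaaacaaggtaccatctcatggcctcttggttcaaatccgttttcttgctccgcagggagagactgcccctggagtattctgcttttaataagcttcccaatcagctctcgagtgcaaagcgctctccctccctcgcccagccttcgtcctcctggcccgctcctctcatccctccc

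The window before the first ALK start was 71.6% G or C, against a median of 58.0% over the 35116 windows of this length in the table. It held 4 GC boxes, and 42.6% of the windows held at least 1. It also held 2 adjacent E-boxes 26 and 20 bases before the start, CAGCTG and CAAGTG, and 61.8% of the windows held at least 1. The share of windows with as many matches was not counted. The window before the second start held no GC box and 1 E-box of the form CACGTG, the form that MYC family proteins prefer, 117 bases before the start. That form was found in 6.34% of the windows. The PTN window was 50.4% G or C and held 1 E-box, CATCTG, 243 bases before the RefSeq start, and no GC box. This window overlaps the PTN gene as placed by GENCODE, which starts at base 137343865 on the minus strand. GATA, and the homeodomain half-sites TAAT and ATTA with 3 bases between them, were searched on both strands and matched none of the 3 windows, while 45.6% and 0.33% of all windows held them. These matches describe letters in the windows and not bound sites.

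The ALK gene (ENSG00000171094) spans chr2:29192774-29921566 of GRCh38, minus strand. ALK had 655 and 749 counts in the IRF2BP2 shRNA libraries, against 3242 and 3034 in the scramble libraries. As CPM these were 20.5 and 23.4 in the IRF2BP2 shRNA libraries and 93.3 and 98.7 in the scramble libraries. Both IRF2BP2 shRNA libraries lay far below both scramble libraries, with no overlap. Groups without overlap were found for 70.4% of the 19093 genes tested. The mean level fell to 21.9 ± 2.06 CPM with the IRF2BP2 shRNA, against 96.0 ± 3.81 CPM with scramble (SD, n = 2 each). The log2 fold change was -2.13 with a standard error of 0.07 (edgeR quasi-likelihood adjusted p = 2.71e-09). Among all genes tested, 331 others (1.73%) had a log2 fold change as low or lower. In bulk RNA, fewer cells that express ALK and less ALK RNA per cell cannot be told apart.

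LTK (ENSG00000062524) spans chr15:41503638-41513887 of GRCh38, minus strand, and had 35 and 53 counts in the IRF2BP2 shRNA libraries, against 30 in each scramble library. The levels were 1.09 and 1.65 CPM in the IRF2BP2 shRNA libraries and 0.864 and 0.976 CPM in the scramble libraries. The groups did not overlap, as in 70.4% of the genes tested. The IRF2BP2 shRNA libraries lay further apart from each other than the lower of them lay from the scramble libraries. Its log2 fold change was 0.58 with a standard error of 0.36, which missed the threshold (edgeR adjusted p = 0.231). The fall of ALK and the difference in LTK were not tested against each other.

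ALKAL2 (ENSG00000189292, chr2:279558-288851 of GRCh38, minus strand) had 0 counts in both IRF2BP2 shRNA libraries, against 20 and 3 counts in the scramble libraries. It did not pass the filter on low counts and was not tested with the other genes. The 23 scramble counts correspond to a level 7.48 times that of a floor of 3 counts over the IRF2BP2 shRNA group. This fold allows for counting error on the 0 counts and not on the 23. Nearly all of these counts came from scramble replicate 1, and the 3 counts of replicate 2 were themselves at the floor, so without replicate 1 no fold can be given. ALKAL2 shares 183 exon bases with AC079779.2 on the opposite strand, and the library kit does not mark strand. ALKAL1, on chromosome 8, had 0 counts in every library, which allows a level of up to 0.0941 and 0.0935 CPM in the IRF2BP2 shRNA libraries and 0.0865 and 0.0973 CPM in the scramble libraries, for counting error only.

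PTN, pleiotrophin (ENSG00000105894), spans chr7:137227341-137343865 of GRCh38, minus strand, and had 9399 and 9434 counts in the IRF2BP2 shRNA libraries, against 5350 and 4550 in the scramble libraries. The levels were 294 CPM in each IRF2BP2 shRNA library and 154 and 148 CPM in the scramble libraries. All values of the IRF2BP2 shRNA group were above those of the scramble group, and 70.4% of the genes tested had groups without overlap. PTN rose 1.95-fold, with a log2 fold change of 0.96 and a standard error of 0.04 (edgeR adjusted p = 1.31e-08). Among all genes tested, 835 others (4.37%) had a log2 fold change as high or higher.

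MDK, midkine (ENSG00000110492), spans chr11:46380756-46383837 of GRCh38, plus strand, and had 5713 and 6089 counts in the IRF2BP2 shRNA libraries, against 7328 and 7308 in the scramble libraries. The levels were 179 and 190 CPM in the IRF2BP2 shRNA libraries and 211 and 238 CPM in the scramble libraries. The groups did not overlap, as in 70.4% of the genes tested, and the gap between the groups was smaller than the spread within the scramble group. MDK fell 1.22-fold, with a log2 fold change of -0.28 and a standard error of 0.06 (edgeR adjusted p = 0.00504). A log2 fold change as low or lower was found for 5647 other genes (29.6%).

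**Figure D1:**
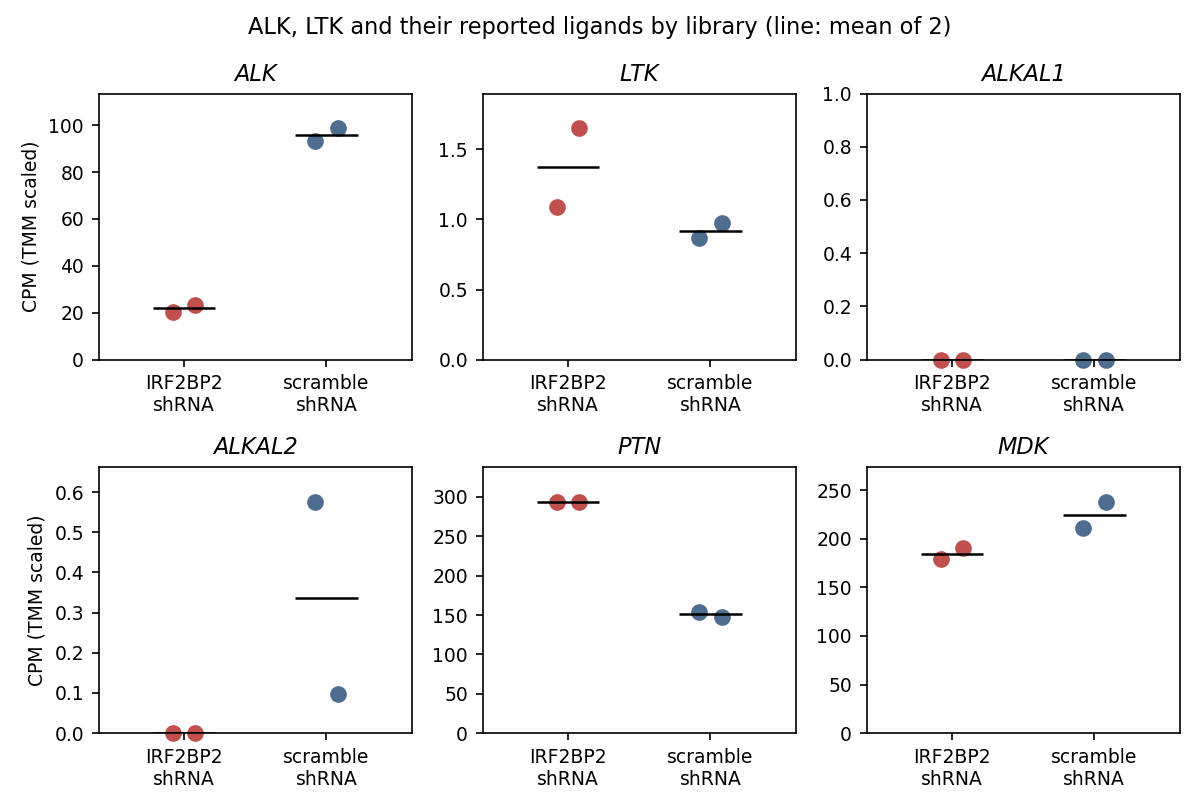
Levels of the 6 genes in CPM scaled by TMM, 1 panel per gene with its own axis from 0, where points are libraries and lines are means of 2. ALK and MDK were lower and PTN was higher in both IRF2BP2 shRNA libraries, LTK was at or under 1.65 CPM, ALKAL2 was counted in the scramble libraries alone and ALKAL1 was at 0.

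Of the 4 genes that passed the filter on low counts, PTN was called higher and ALK and MDK were called lower at an adjusted p under 0.05. Over all 19093 genes tested 42.0% were called, with 20.6% higher and 21.4% lower, and the median log2 fold change was -0.01. With so large a share of genes called, the number of called genes in the family is a description. The calls of ALK, PTN and MDK and the lack of a call for LTK were the same in every alternative setting that held the gene.

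Levels were compared between genes per length, as TPM (counts divided by the merged exon length of the gene and scaled to the same total in each library). With the IRF2BP2 shRNA the order was PTN with 572 ± 2.12, MDK with 279 ± 10.8, ALK with 9.92 ± 0.876 and LTK with 1.31 ± 0.371 TPM (SD, n = 2 each), followed by ALKAL2 and ALKAL1 at 0. With scramble the order was MDK with 331 ± 23.4, PTN with 286 ± 12, ALK with 42.3 ± 1.09 and LTK with 0.855 ± 0.0621 TPM, followed by ALKAL2 with 0.502 ± 0.508 TPM and ALKAL1 at 0. The scramble levels of LTK and ALKAL2 overlapped, and the other neighbours in each order did not, apart from the genes at 0. The gap between MDK and PTN with scramble was smaller than the spread of MDK. PTN and MDK changed places between the groups.

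The PTN level was 2.11 and 1.99 times that of MDK in the IRF2BP2 shRNA libraries, against 0.936 and 0.798 times in the scramble libraries. PTN and MDK together reached 845 and 857 TPM in the IRF2BP2 shRNA libraries, against 609 and 625 TPM in the scramble libraries. Their summed level was 90.9 and 81.4 times that of ALK in the IRF2BP2 shRNA libraries, against 14.7 and 14.5 times in the scramble libraries. The ALK level was 8.87 and 6.70 times that of LTK in the IRF2BP2 shRNA libraries, against 51.2 and 47.9 times in the scramble libraries. All 4 quantities separated the groups without overlap, as did the CPM of 70.4% of the genes tested. They are built from the levels given above and add no separate support. With 2 libraries a group the smallest two-sided p of an exact permutation test is 0.333, so they were not tested.

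**Figure D2:**
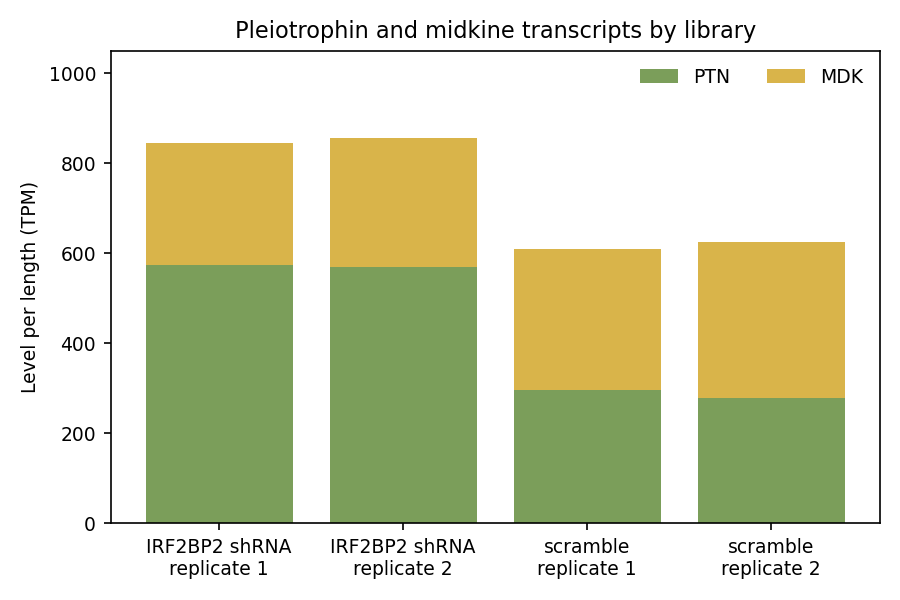
Stacked levels per length of PTN and MDK in TPM in each library. PTN made up 67.8% and 66.5% of the summed level of the 4 ligand genes in the IRF2BP2 shRNA libraries, against 48.3% and 44.4% in the scramble libraries.

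ALK and LTK were then set among the 58 human receptor tyrosine kinase genes. ALK held rank 16 by mean TPM with the IRF2BP2 shRNA, between EPHB3 with 12.2 ± 0.555 and INSR with 6.54 ± 0.205 TPM, and rank 9 with scramble, between FGFR1 with 46.2 ± 0.892 and RYK with 29.5 ± 0.542 TPM (SD, n = 2 each). LTK held rank 28 with the IRF2BP2 shRNA, between INSRR with 1.42 ± 0.0811 and FLT4 with 1.27 ± 0.0667 TPM, whose values overlapped those of LTK. With scramble LTK held rank 30, between AATK with 0.978 ± 0.161 TPM, whose values overlapped those of LTK, and EPHA8 with 0.651 ± 0.0996 TPM. ALK made up 0.971% and 1.09% of the summed TPM of the 58 genes in the IRF2BP2 shRNA libraries, against 4.0% and 4.25% in the scramble libraries. The sum itself was 957 and 970 TPM in the IRF2BP2 shRNA libraries, against 1040 and 1010 TPM in the scramble libraries.

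Of the 58 receptor genes 40 were tested, ALK and LTK among them, and 13 rose, 18 fell and 9 missed the threshold (77.5% called, beside 42.0% of all genes), around a median of -0.31 on the log2 scale. Without IRF2BP2 shRNA replicate 2, 7 were called higher, and among the 19 averaging 10 CPM or more 7 were called higher and 10 lower (89.5% called, beside 59.1% of all genes at that level, with 28.6% higher and 30.4% lower). In the 40 tested, ALK had the fourth lowest log2 fold change, after AXL (-2.39), KIT (-2.35) and NTRK2 (-2.28). AXL and NTRK2 had under 1 TPM in both groups and their calls did not hold without IRF2BP2 shRNA replicate 2 (edgeR adjusted p = 0.0697 for AXL and 0.0532 for NTRK2) or without scramble replicate 1 (edgeR adjusted p = 0.0804 for AXL and 0.0597 for NTRK2). Without IRF2BP2 shRNA replicate 2 the log2 fold changes were -2.23 for ALK, -2.04 for KIT, -1.72 for AXL and -1.49 for NTRK2, which put ALK at rank 1, and over all alternative settings its rank ran between 1 and 7. KIT, the receptor for stem cell factor, had 1.02 ± 0.337 TPM with the IRF2BP2 shRNA and 5.06 ± 0.188 TPM with scramble. Among the more abundant receptors, ROR2 (-0.61), PDGFRB (-0.36), RET (-0.34), IGF1R (-0.32) and DDR2 (-0.13) fell and FGFR1 (0.56), EPHB4 (0.18) and PTK7 (0.14) rose on the log2 scale. Without IRF2BP2 shRNA replicate 2 the calls of EPHB4 and PTK7 did not hold (edgeR adjusted p = 0.0745 and 0.0752), and that of DDR2 without either IRF2BP2 shRNA library (edgeR adjusted p = 0.212 and 0.104) and without scramble replicate 1 (edgeR adjusted p = 0.195). PTK7 also missed the threshold with upper quartile scaling (adjusted p = 0.0575), and DDR2 with DESeq2 (0.0504), no filter (0.125) and edgeR without robust estimation (0.0516). FGFR3 rose with a log2 fold change of 3.0. FLT1 had 16 and 14 counts in the IRF2BP2 shRNA libraries and 0 in both scramble libraries. Its level with the IRF2BP2 shRNA was 10.2 times that of a floor of 3 counts over the scramble group. That fold leaves out counting error on the 16 and 14 counts.

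**Figure D3:**
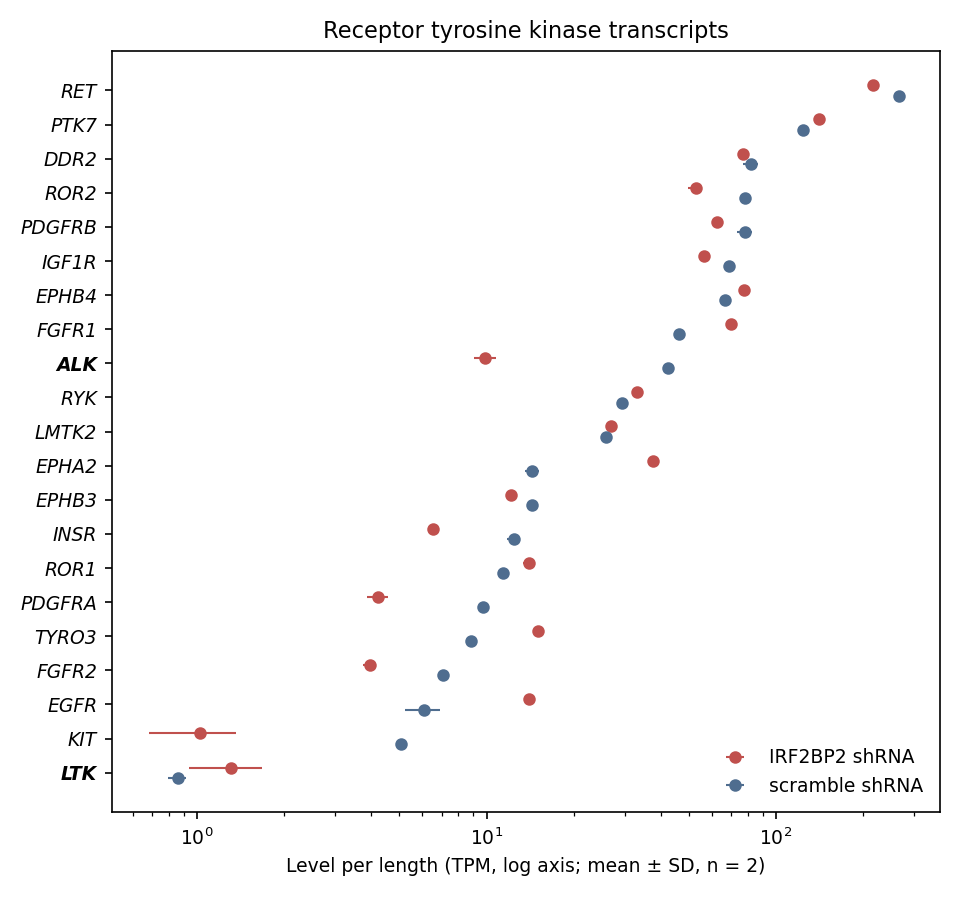
Levels per length in TPM (log axis, mean ± SD, n = 2) of the 20 receptor tyrosine kinase genes with the highest scramble levels and of LTK. ALK moved to 9.92 TPM with the IRF2BP2 shRNA, against 42.3 TPM with scramble, and of the other receptors drawn here KIT alone had a larger fold between the groups.

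Other surface proteins reported to bind pleiotrophin or midkine moved both ways. Of 20 such genes 18 were tested, and 6 rose, 4 fell and 8 missed the threshold. The share called was 55.6%, beside 42.0% of all genes, and the median log2 fold change was -0.03. The balance turned to 4 higher and 6 lower with upper quartile scaling. Over all genes that scaling also gave fewer calls higher and more lower, with 3315 and 4615, against 3930 and 4086 with TMM scaling. Among the 13 averaging 10 CPM or more, 4 were called higher and 5 lower (69.2% called, beside 59.1% of all genes at that level). Without IRF2BP2 shRNA replicate 2, 3 were called higher. PTPRZ1, the receptor phosphatase that pleiotrophin binds and inhibits, had 0 counts in every library. PTPRB, a receptor phosphatase of endothelial cells, fell to 4.76 ± 0.557 CPM with the IRF2BP2 shRNA, against 14.5 ± 1.30 CPM with scramble (SD, n = 2 each; edgeR adjusted p = 7.08e-06). GPC2 (-0.67), a heparan sulfate proteoglycan of neuroblastoma cells, LRP1 (-0.61), an endocytic receptor, and SDC1 (-0.46), a syndecan, fell on the log2 scale. ITGA4 (1.34) and ITGB1 (0.15), integrin subunits, NOTCH2 (0.40), and PTPRS (0.16), a receptor phosphatase that binds proteoglycans, rose. Leaving out IRF2BP2 shRNA replicate 2 ended the calls of ITGB1 and PTPRS (edgeR adjusted p = 0.0910 and 0.0717), and upper quartile scaling ended that of ITGB1 (0.0652).

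All 40 genes listed as adaptors and effectors of ALK were tested, and 15 rose, 7 fell and 18 missed the threshold. The share called was 55.0%, beside 42.0% of all genes, and the median log2 fold change was 0.09. Among the 36 averaging 10 CPM or more, 11 were called higher and 6 lower. That share was 47.2%, below the 59.1% of all genes at that level. SHC1, the adaptor that binds phosphorylated ALK, fell to 182 ± 5.46 CPM with the IRF2BP2 shRNA, against 325 ± 3.38 CPM with scramble (SD, n = 2 each; edgeR adjusted p = 4.13e-08). It shares 335 exon bases with PYGO2, which had a mean of 2388 counts against 8228 for SHC1. PIK3R1, a regulatory subunit of PI3 kinase, rose to 176 ± 5.07 CPM, against 87.7 ± 4.23 CPM with scramble (edgeR adjusted p = 1.88e-08). The insulin receptor substrate gene IRS2 (0.51), the kinase genes MAP2K5 (0.59) and AKT1 (0.18), the transcription factor gene STAT3 (0.31) and the phosphatase gene PTPN11 (0.18) rose on the log2 scale. The adaptor gene GAB2 (-0.55), the PI3 kinase subunit gene PIK3R2 (-0.31) and the RAS exchange factor gene SOS1 (-0.30) fell, as did SHC2 (-1.39), an adaptor of neurons. SHC4 had 89 and 84 counts in the IRF2BP2 shRNA libraries, against 32 and 26 in the scramble libraries, and rose by 1.61 on the log2 scale (edgeR adjusted p = 0.00101). It shares 169 exon bases on the opposite strand with EID1, which had a mean of 5553 counts over the 4 libraries. PTPN11 shares 111 exon bases with RPL6, at a mean of 33879.5 counts. Calls were lost without single libraries for JAK3 (-1.07) and MAP2K2 (0.11), whose edgeR adjusted p without IRF2BP2 shRNA replicate 2 was 0.0668 and 0.291. The call of JAK3 also ended on leaving out IRF2BP2 shRNA replicate 1 (edgeR adjusted p = 0.172) or scramble replicate 2 (0.258). That of MAP2K2 also ended on leaving out IRF2BP2 shRNA replicate 1 (edgeR adjusted p = 0.0652) or scramble replicate 1 (0.102). With all libraries kept, JAK3 missed the threshold with DESeq2 (adjusted p = 0.172), limma voom (0.0526) and no filter on low counts (0.069). MAP2K2 did so with DESeq2 (adjusted p = 0.0741), upper quartile scaling (0.237), no filter (0.0558), a minimum of 10 CPM (0.111) and edgeR without robust estimation (0.0549).

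Among 14 genes for proteins that dampen or turn over receptor tyrosine kinase signalling, 12 were tested. Of these, 2 rose, 3 fell and 7 missed the threshold. The share called was 41.7%, near the 42.0% of all genes, and the median log2 fold change was 0.04. LRIG1, a membrane protein that promotes receptor degradation, fell to 11.3 ± 0.718 CPM with the IRF2BP2 shRNA, against 43.4 ± 2.00 CPM with scramble (SD, n = 2 each; edgeR adjusted p = 2.32e-08). LRIG1 shares 907 exon bases on the opposite strand with SLC25A26, at a mean of 894.8 counts against 889.0 for LRIG1. PTPRB and the deubiquitinase gene USP9X (-0.23) also fell, and the adaptor gene SH2B3 (0.88) and PTPN1 (0.35), a phosphatase that acts on ALK, rose on the log2 scale. SH2B3 shares 69 exon bases with ATXN2 on the opposite strand, at a mean of 2071 counts against 1313.8 for SH2B3.

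Genes reported to respond to ALK activity were mostly called, in both directions. Of 24 listed 23 were tested, and 13 rose, 8 fell and 2 missed the threshold (91.3% called, beside 42.0% of all genes), around a median of 0.39 on the log2 scale. No expected direction was set for the genes of the list, so the counts and the median do not measure ALK signalling. The list was chosen with earlier results of these data known, so its share called is a description. Among genes averaging 10 CPM or more, 18 were tested, with 8 called higher and 8 lower (88.9% called, beside 59.1% of all genes at that level). EGR1, an immediate early transcription factor, rose to 86.5 ± 0.434 CPM with the IRF2BP2 shRNA, against 21.4 ± 2.08 CPM with scramble (SD, n = 2 each). The ERK feedback inhibitors SPRY1 (2.04), SPRY2 (1.44) and SPRY4 (0.64), the phosphatase DUSP5 (1.45), the AP-1 subunits FOS (1.61) and FOSL1 (1.57), the cyclin CCND1 (1.16), the ETS factor ETV4 (0.71), MYCN (0.39) and the neuropeptide precursor VGF (0.21) rose on the log2 scale. DUSP6, a phosphatase of ERK, fell to 98.0 ± 1.17 CPM with the IRF2BP2 shRNA, against 180 ± 1.27 CPM with scramble, and FOXO3 (-0.52), RET (-0.34) and SPRED2 (-0.17) fell on the log2 scale. The call of SPRED2 ended when IRF2BP2 shRNA replicate 1 was left out (edgeR adjusted p = 0.0834), or scramble replicate 1 (edgeR adjusted p = 0.0567). The other called genes of the list lie outside the naming rule and were chosen after their values were seen. The ETS factor ETV5 (-0.59), PHLDA1 (-0.46) and HBP1 (-0.71) fell and MAFF (0.87) rose on the log2 scale in every alternative setting. The ETS factor ETV1 (-0.15) and IER3 (0.78) were called (edgeR adjusted p = 0.0186 and 0.0324), and each call was lost in 5 settings, with an adjusted p of up to 0.173 for ETV1 and 0.29 for IER3. The dependence of these genes on ALK was not tested. HBP1 shares 975 exon bases with COG5 on the opposite strand, at a mean of 2019.5 counts against 1322.2 for HBP1. ETV4 shares 68 exon bases with DHX8 on the opposite strand, at a mean of 3676.8 counts against 4766.5 for ETV4.

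The adrenergic core transcription factors, some of which are reported to bind at ALK, were mostly lower. All 12 were tested, and 3 rose, 8 fell and 1, GATA3, missed the threshold. The share called was 91.7%, beside 42.0% of all genes, and the median log2 fold change was -0.60. This list was chosen with earlier results of these data known, so its share called is a description. Among the 11 averaging 10 CPM or more, 90.9% were called, beside 59.1% of all genes at that level. TFAP2B, a factor of the sympathetic lineage, fell to 152 ± 1.18 CPM with the IRF2BP2 shRNA, against 273 ± 1.77 CPM with scramble (SD, n = 2 each; edgeR adjusted p = 2.49e-08). LMO1 (-1.68), PHOX2A (-0.79), ISL1 (-0.79), HAND2 (-0.40) and SOX11 (-0.39) fell, and TBX2 (0.50), MYCN (0.39) and GATA2 (0.17) rose on the log2 scale. Without IRF2BP2 shRNA replicate 2 the call of GATA2 ended (edgeR adjusted p = 0.0731). PHOX2A, HAND2, ISL1, GATA3 and MYCN are also among the neuroblastoma markers summed above. HAND2 shares 867 exon bases with HAND2-AS1, at a mean of 13849.5 counts, and PHOX2A shares 29 with INPPL1, each on the opposite strand.

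**Figure D4:**
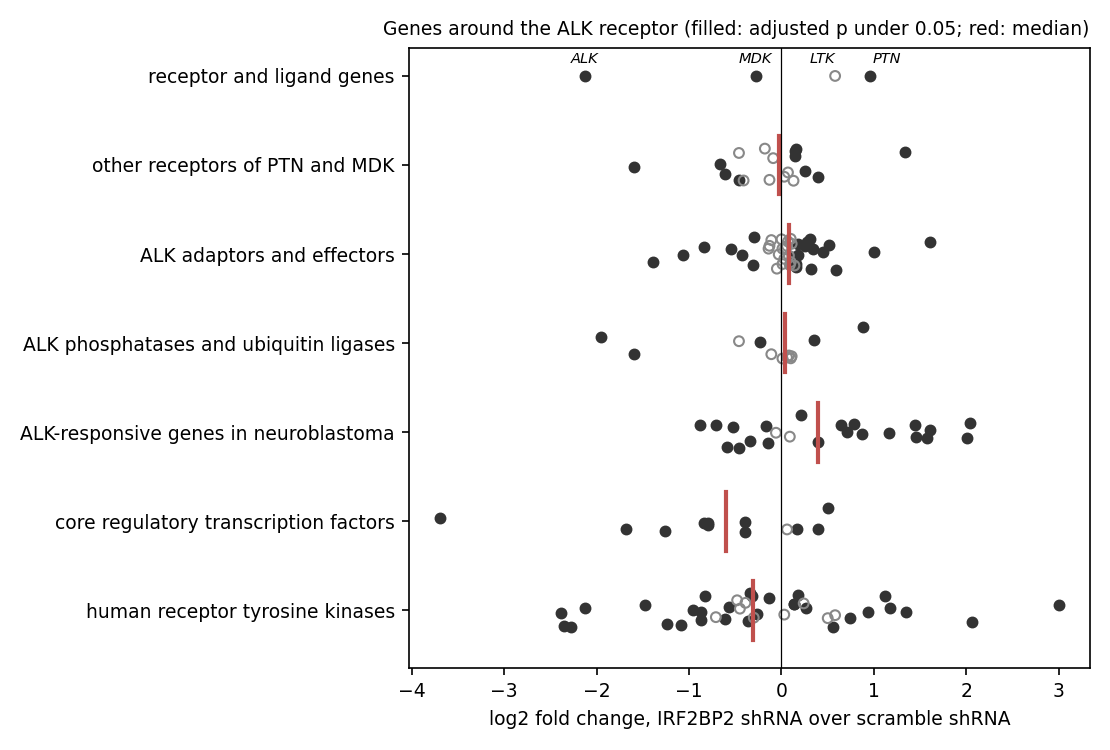
Log2 fold changes (IRF2BP2 shRNA over scramble shRNA) of the 4 tested receptor and ligand genes and of the tested genes of 6 lists, with filled points for an adjusted p under 0.05 and red lines for list medians. FLT1, at 0 in both scramble libraries, is not drawn. The medians ran between -0.60 for the core transcription factors and 0.39 for the ALK-responsive genes.

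Genes near ALK on chromosome 2 moved in both directions. Of 18 protein-coding genes that start within 2 Mb of the ALK start 13 were tested. Among them 4 rose, 4 fell and 5 missed the threshold. The share called was 61.5%, beside 42.0% of all genes, and the median log2 fold change was 0.04. Among the 10 averaging 10 CPM or more, 70.0% were called, beside 59.1% of all genes at that level. The nearest tested gene on the centromeric side, YPEL5, starts 225 kb away and fell by 0.45 on the log2 scale (edgeR adjusted p = 0.00096). CLIP4, the nearest on the telomeric side, starts 824 kb from the ALK start. Its end at base 29189643 lies close to the far end of ALK at base 29192774. CLIP4 differed by 0.15 on that scale and missed the threshold (edgeR adjusted p = 0.130). GALNT14 (1.5), EHD3 (1.05) and LBH (0.68) rose and TOGARAM2 (-1.15) fell on the log2 scale, and no tested neighbour had a fall as large as that of ALK.

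**Figure D5:**
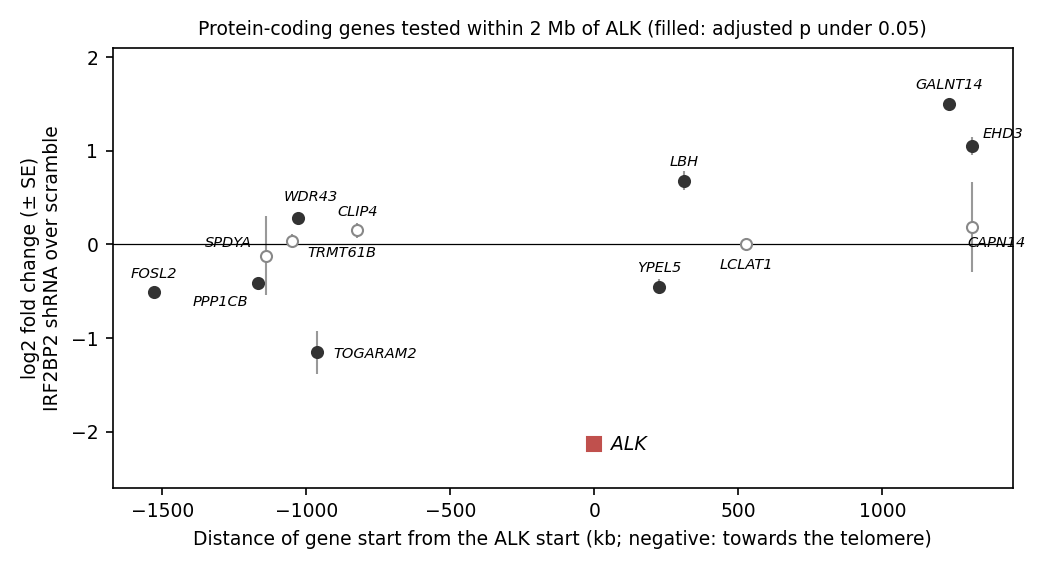
Log2 fold changes ± SE of the 13 protein-coding genes tested within 2 Mb of the ALK start, by distance from it in kb, with filled points for an adjusted p under 0.05. ALK, the square at -2.13, lies below all of them, and the lowest neighbour is TOGARAM2 at -1.15.

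The genes whose profile over the 4 libraries was most like that of each tested member were found by the distance between mean-centred log2 CPM values, among protein-coding genes with a mean of at least 5 CPM (10661 for each member, 10662 for LTK, which is itself below that level). With 4 libraries in 2 groups, this mostly finds genes with the same fold change. Nearest to ALK were ARHGAP22 (distance 0.033, log2 fold change -2.11), PLPPR3 (0.076, -2.12), ACBD7 (0.135, -2.25) and JAKMIP1 (0.135, -2.02). ARHGAP22 averaged 3.44 CPM with the IRF2BP2 shRNA and 14.9 CPM with scramble. Nearest to PTN were FAM89A (distance 0.038), SPARC (0.045), DKK1 (0.046) and ZEB2 (0.047), with log2 fold changes between 0.93 for DKK1 and 0.97 for SPARC. Nearest to MDK were SCPEP1 (distance 0.028), NCKIPSD (0.033), SEMA4D (0.033) and KIF18A (0.034), of which NCKIPSD missed the threshold (edgeR adjusted p = 0.0554), while the other calls were lost without IRF2BP2 shRNA replicate 1 or scramble replicate 2 (edgeR adjusted p between 0.0587 and 0.171). The genes nearest to LTK were ZNF579 (0.169), GLYCTK (0.176), PHRF1 (0.195) and RIPK2 (0.203), at larger distances than those found for ALK, PTN and MDK.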

How the data were processed

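RNA extracted with TRIzol was made into unstranded TruSeq RNA libraries, per the labels' protocols, and reads were aligned to hg38 by HISAT2 2.2.0, per the submitters' processing notes. Which program and annotation the counting used is not given in those sources. The deposited table holds the authors' raw counts per gene. Its control columns are marked NC, a short form the labels leave unexplained, and were taken as scramble since the remaining columns name IRF2BP2. Replicate numbers follow the titles. Symbols came from a table of gene names (56105 of 64252 identifiers), and positions and merged exon lengths from GENCODE 29 on GRCh38.

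The test was edgeR's quasi-likelihood F-test (version 4.0.16, R 4.3.3), two-sided and robust, after filterByExpr and TMM scaling (factors between 0.9962 and 1.0038), with Benjamini-Hochberg adjustment over 19093 genes and a threshold of 0.05. Every log2 fold change has scramble as its denominator, and a standard error is the log2 fold change's size over the root of F. Floors cover counting error only. The fit was run on simulated data in which far fewer genes were changed than were called here. That run does not cover a change of this breadth. DESeq2 1.42.0, limma voom 3.58.1, other scalings and filters, left-out libraries and a replicate block were alternatives. Genes, lists and the naming rule were chosen with earlier results of these data known. The share called in any list, the receptor tyrosine kinases included, is therefore a description. The rule named up to 6 called genes with the largest log2 fold change in each list and called genes averaging 100 CPM or more, the nearest tested neighbour of ALK on each side with the 4 largest called ones, and the 4 profiles nearest to each tested member. Some genes that the rule took are left out of the text and are not reported here.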

Additional observations from a re-analysis of the deposited data

How the results depend on the processing

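Over 12 alternative settings the log2 fold change lay between -2.23 and -2.03 for ALK, 0.91 and 1.00 for PTN and -0.36 and -0.19 for MDK, and all 3 were called in each. LTK, which a minimum of 10 CPM removes, lay between 0.25 and 0.85 in 11 settings and was called in none. ALKAL2 was fitted in 4 settings, with values that depend on the prior count and give no bound. Without a filter on low counts it had -6.48 (edgeR adjusted p = 0.0352), and with single libraries left out it ran between -7.25 and -6.49, called without scramble replicate 2 (edgeR adjusted p = 0.00788) and not called without either IRF2BP2 shRNA library. Among genes averaging 10 CPM or more, the called receptor tyrosine kinases were 7 higher and 10 lower, and 8 ALK-responsive genes were called higher, where fewer genes were tested. With single libraries left out, between 7 and 11 receptor tyrosine kinases and between 3 and 6 other receptors of PTN and MDK were called higher. Where a left-out library leaves 1 in its group, that one is assumed to vary like the others. Of 90 other named genes 19 had a call gained or lost in some setting and 0 changed direction. The deviations of libraries that share a replicate number had a correlation of 0.06 over 19093 genes. With 2 libraries a group, both numbers give the same correlation by construction, and it does not test for a shared batch. With the replicate block ALK had -2.13, PTN 0.96, MDK -0.28 and LTK 0.56, with the same calls. The standard error of MDK was 0.04 with the block, against 0.06 without it. LTK, ALKAL1 and ALKAL2 had at most 53 counts in a library.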
